A study of Homo sapiens with 12 samples.

Results

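The zinc finger genes of chromosome 19 were described in KYSE150 and KYSE510, 2 human lines grown from squamous carcinomas of the esophagus. The set was defined by name and position: a gene symbol of ZNF, a number and at most one further letter, with the first listed exon on chromosome 19. It held 238 genes of the 38516 in the deposited table. The other 1987 genes of chromosome 19 and 265 genes with ZNF symbols on other chromosomes served as comparison sets. RNA abundance was given as RPKM, read numbers scaled for exon length and library size.

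The 12 libraries formed 4 groups of 3: control KYSE150, HCP5-silenced KYSE150, control KYSE510 and HCP5-silenced KYSE510. HCP5 is a long non-coding RNA gene of the major histocompatibility complex. The labels do not explain the "sh" at the start of each title, and neither the reagents nor the number of clones or independent cultures is stated. P-values therefore measure the spread between these libraries, which may be technical. The cells grew in RPMI-1640 with 10% fetal bovine serum.

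Most zinc finger proteins of this kind bind DNA through a row of fingers of the Cys2-His2 type, each of which contacts a few bases. Many carry a KRAB domain at the amino end, which recruits the corepressor TRIM28 and through it the histone methyltransferase SETDB1 and HP1 proteins. The family is known for repression of transposable elements. Its genes arose by tandem duplication and lie in clusters along chromosome 19, which can carry the same repressive chromatin at their own 3′ ends, and promoters of several members are known to be methylated in carcinomas.

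The libraries held 20035025 to 28202422 reads, recovered from the RPKM steps. HCP5 itself was at 0.779, 0.745 and 0.786 RPKM in the KYSE150 controls against 0.315, 0.418 and 0.579 after silencing. The KYSE510 controls had 0.914, 1.85 and 1.40 RPKM and their silenced counterparts 0.505, 0.951 and 0.948. The log2 differences of -0.45 and -0.53 had limma adjusted p = 0.267 and 0.646, which did not pass the test, although HCP5 was lower in the library labelled as silenced in 3 of 3 numbered pairs of each line. For the mean of both lines (-0.49) the limma adjusted p was 0.185, and with the replicate number as a block, which models the pairs, it was 0.0295 and passed. With the block it was 0.0556 in KYSE150 and 0.134 in KYSE510. Of 9 squamous epithelial markers, 8 in KYSE150 (all but SOX2) and 9 in KYSE510 averaged at least 1 RPKM, and the summed level of the list was 653 to 2328 RPKM in KYSE150 and 865 to 2234 in KYSE510. All 5 fibroblast markers (COL1A1, COL1A2, DCN, LUM and PDGFRB) averaged under 1 RPKM in both lines, with sums of at most 0.225 and 0.822. Of 5 immune markers only CD68 exceeded 1 RPKM, and of 4 endothelial markers only CDH5 did, in KYSE510, where the sum of the list reached 2.09 RPKM against at most 0.107 in KYSE150.

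Promoter sequences are shown for genes with large called differences between the control lines, as far as a RefSeq start lay within 100 bases of the start in the deposited table. ZNF114, ZNF28 and ZNF444, which differed more than the last one shown, had no such start. RefSeq promoters (GRCh38.p14) were found for 196 of the 238 genes, and 143 of these met that condition. Each line gives the 250 bases before the RefSeq start, 5′ to 3′ on the strand of the gene. CG dinucleotides, the sites at which promoters are methylated, are in capitals. The first 3 belong to genes that were higher in KYSE510.
ZNF761, chr19:53431734-53431983, strand plus: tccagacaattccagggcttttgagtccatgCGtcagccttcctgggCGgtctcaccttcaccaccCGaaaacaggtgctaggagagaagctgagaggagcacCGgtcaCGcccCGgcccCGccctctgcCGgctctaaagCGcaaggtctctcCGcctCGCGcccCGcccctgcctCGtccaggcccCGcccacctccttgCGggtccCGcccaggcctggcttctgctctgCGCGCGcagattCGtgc
ZNF331, chr19:53520764-53521013, strand plus: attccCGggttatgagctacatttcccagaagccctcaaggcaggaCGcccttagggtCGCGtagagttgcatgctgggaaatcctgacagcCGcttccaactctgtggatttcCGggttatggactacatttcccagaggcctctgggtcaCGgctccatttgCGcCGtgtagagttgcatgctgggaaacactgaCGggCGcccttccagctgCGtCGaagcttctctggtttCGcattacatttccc
ZNF468, chr19:52857620-52857869, strand minus: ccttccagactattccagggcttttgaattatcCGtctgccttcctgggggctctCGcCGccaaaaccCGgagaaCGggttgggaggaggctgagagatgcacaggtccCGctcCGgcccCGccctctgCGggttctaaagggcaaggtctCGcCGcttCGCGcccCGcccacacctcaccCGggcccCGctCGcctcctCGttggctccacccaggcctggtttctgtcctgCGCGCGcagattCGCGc

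The next 4 belong to genes that were higher in KYSE150.
ZNF787, chr19:56121296-56121545, strand minus: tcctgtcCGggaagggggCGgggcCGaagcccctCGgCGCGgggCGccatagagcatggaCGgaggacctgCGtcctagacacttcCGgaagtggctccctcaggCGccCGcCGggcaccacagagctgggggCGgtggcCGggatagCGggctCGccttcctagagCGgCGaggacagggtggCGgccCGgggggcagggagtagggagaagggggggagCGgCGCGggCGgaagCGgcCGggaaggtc
ZNF530, chr19:57599635-57599884, strand plus: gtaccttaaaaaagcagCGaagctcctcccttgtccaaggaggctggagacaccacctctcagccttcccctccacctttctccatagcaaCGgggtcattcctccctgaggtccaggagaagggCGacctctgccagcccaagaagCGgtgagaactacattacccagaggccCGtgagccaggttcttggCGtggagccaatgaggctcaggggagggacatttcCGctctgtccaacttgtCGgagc
ZNF134, chr19:57613992-57614241, strand plus: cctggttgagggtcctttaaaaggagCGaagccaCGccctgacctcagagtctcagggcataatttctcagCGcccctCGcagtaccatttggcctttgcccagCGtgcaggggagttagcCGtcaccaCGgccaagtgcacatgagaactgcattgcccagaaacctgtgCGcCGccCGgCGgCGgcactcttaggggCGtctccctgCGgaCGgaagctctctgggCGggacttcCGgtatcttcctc
ZNF675, chr19:23687213-23687462, strand minus: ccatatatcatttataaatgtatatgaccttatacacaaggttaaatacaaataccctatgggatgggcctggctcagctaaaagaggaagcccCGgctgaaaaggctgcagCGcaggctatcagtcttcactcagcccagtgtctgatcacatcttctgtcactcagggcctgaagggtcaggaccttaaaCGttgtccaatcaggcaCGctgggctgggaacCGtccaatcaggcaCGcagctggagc

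These windows held 21 CG dinucleotides in ZNF761, 14 in ZNF331, 23 in ZNF468, 27 in ZNF787, 8 in ZNF530, 17 in ZNF134 and 6 in ZNF675. The median over the 196 promoters was 16, against 11 over 27305 RefSeq promoters. The 6 promoters of genes under 0.01 RPKM in KYSE150 and at least 0.5 in KYSE510 held a median of 21.5 (range 14 to 25), and the 4 of the opposite pattern a median of 18 (range 8 to 27). The 37 promoters of genes under 0.01 RPKM in both lines held 13, and the 77 of genes at 0.5 RPKM or more in both held 17. Counted on both strands, the letters CCGGAA stood in 39.8% of the promoters of the set and 14.8% of all RefSeq promoters, GGGCGG in 65.3% and 42.3%, CCAAT in 52.6% and 33.0%, TATAAA in 2.04% and 11.1%, and GCATGCG in 5.10% and 3.57%. Of the 7 promoters shown, CCGGAA stood in those of ZNF331, ZNF787 and ZNF134, and TATAAA only in that of ZNF675. A match describes the letters and is no evidence of binding.

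The 238 genes spanned positions 2819874 to 58481230 of chromosome 19, with 128 on the plus and 110 on the minus strand. Split wherever 2 neighbouring starts were over 1 Mb apart, they formed 9 clusters of 5 to 56 genes, numbered from the short to the long arm, and 11 isolated genes. GENCODE 29 lists 235 of them by the same name at the same place, and 223 had a coding model. The encoded proteins held 0 to 36 fingers with a median of 12, from ZNF738 with 137 residues and no finger to ZNF208 with 1280 residues and 36 fingers. A KRAB A box was found in 179 of the 223 by a sequence pattern, loosened at several positions after a stricter form had found 162. The family is of recent common origin, yet the transcripts were mostly distinct in sequence: the median gene shared 1.37% of its 50-base words with transcripts of other genes. The share exceeded 10% in 15 genes and reached 41.1%. How the authors assigned reads that match several genes is not given in the sources used here. Exon bases were shared with another row of the table by 121 genes, in 62 of them with a row on the opposite strand, and the use of strand in counting is not given either.

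Most of the genes were expressed at low levels. In KYSE150 controls the median gene had a mean of 0.479 RPKM and 89 of 238 reached 1 RPKM. In KYSE510 controls the median was 0.345 RPKM and 75 reached 1 RPKM. No read was recovered in any library for 10 genes. Summed over the set, the 3 KYSE150 controls gave 306, 309 and 321 RPKM and the 3 KYSE510 controls 263, 292 and 292 RPKM, so the sums of the lines did not overlap. The silenced libraries gave 321, 331 and 346 RPKM in KYSE150 and 258, 280 and 272 in KYSE510. The set took 0.120% to 0.168% of the reads of a library.

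The most abundant gene in both lines was ZNF146, whose protein consists almost entirely of 10 fingers and has no KRAB domain. Its controls were at 30.2, 30.9 and 27.2 RPKM in KYSE150 and at 67.7, 68.9 and 68.3 RPKM in KYSE510, without overlap. The log2 difference was 1.20 ± 0.07 (SE; limma adjusted p = 4.46e-08). It shared 446 exon bases, 10.8% of its length, with ZNF565 on the opposite strand. Over the 6 libraries of each line, the next in KYSE150 were ZNF114 at 9.94, ZNF787 at 9.93, ZNF317 at 9.92 and ZNF544 at 7.95 RPKM. In KYSE510 they were ZNF761 at 13.8, ZNF580 at 6.53, ZNF480 at 6.08 and ZNF317 at 5.90 RPKM. Thus 3 of the 5 most abundant genes of each line were not among the 5 of the other. Across the 238 genes the mean log2 levels of the lines had Pearson r = 0.736, and across the 36815 genes with a read r = 0.939. The rank correlations were closer, with Spearman rho = 0.722 and 0.859. Genes share their libraries and are no independent replicates, so these coefficients are descriptions only.

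**Figure D1:**
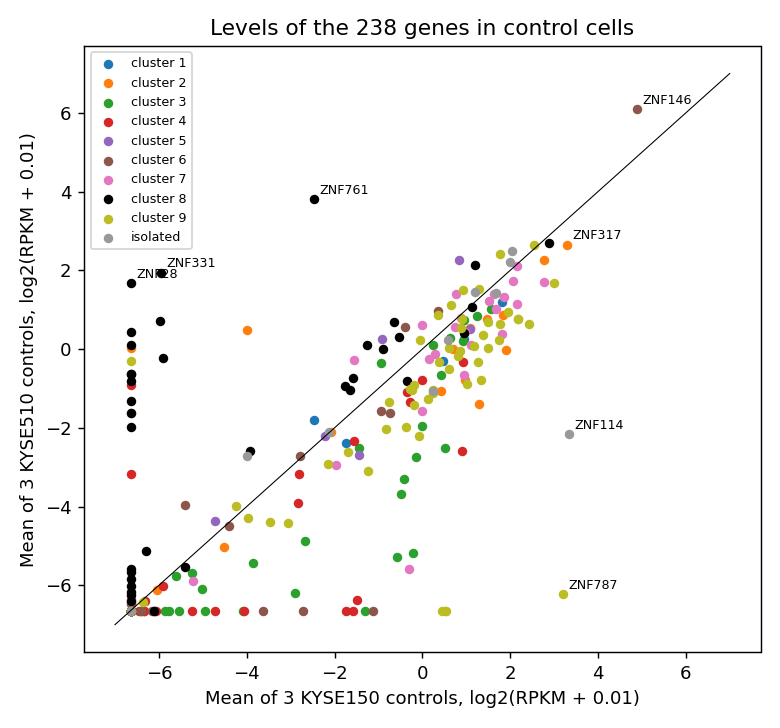
Mean level of each of the 238 genes in the 3 control libraries of KYSE150 (horizontal) and of KYSE510 (vertical), both as log2(RPKM + 0.01), coloured by gene cluster, with the line of equal levels. ZNF146 sits highest in both lines, ZNF761, ZNF331 and ZNF28 lie far above the line, and ZNF787 and ZNF114 far below it.

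The first comparison asked whether control KYSE510 and control KYSE150 cells differ in these genes. Abundance was tested with limma on log2(RPKM + 0.5) for genes at 0.5 RPKM or more in at least 3 of the 12 libraries. This filter kept 136 of the 238 genes and left out 102. Of the 136, 87 passed in each line taken alone, 32 passed only through KYSE150 and 17 only through KYSE510. A gene that passed through 1 line had to be higher there. Just inside the filter stood ZNF613, ZNF527 and ZNF577, with a third-highest value of 0.504, 0.540 and 0.567 RPKM, and just outside ZNF14, ZNF836 and ZNF383 with 0.493, 0.464 and 0.463. The pseudocount of 0.5 makes fold changes of low genes smaller than their ratio of RPKM.

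Of the 136 tested genes, 117 passed the threshold of adjusted p 0.05 between the control lines, where 62.0% of all 17823 tested genes passed. Higher abundance in KYSE150 was called for 84 genes, 61.8% of those tested (33.7% of all tested genes), and in KYSE510 for 33, 24.3% (28.3% of all tested genes). The median log2 difference, KYSE510 minus KYSE150, was -0.43 over the genes of the set and -0.07 over all tested genes. The 208 tested ZNF genes of other chromosomes had a median of -0.32, with 36 called higher in KYSE510 and 109 in KYSE150. The 1077 other tested genes of chromosome 19 had a median of -0.05, with 304 and 342 called. Among the 87 genes that passed the filter in each line, 52 (59.8%) were called higher in KYSE150 and 16 (18.4%) in KYSE510, and over all 14544 such genes the shares were 34.5% and 25.1%. Without any filter, every KYSE150 control exceeded every KYSE510 control in 106 of the 238 genes (44.5%; 20.3% over the whole table), and the reverse held in 42 (17.6%; 18.4%).

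The lines were also compared in the silenced libraries, which had entered the filter too. In all 84 genes called higher in KYSE150 controls, each silenced KYSE150 library also exceeded each silenced KYSE510 library (91.1% over all genes called in that direction). For the 33 called higher in KYSE510 this held in 27 (81.8%; 81.7% over all genes called). The share of mitochondrial reads was 7.86% to 8.91% in KYSE150 controls and 10.2% to 11.0% in KYSE510 controls, and its part in the difference between lines was not tested. In bulk RNA, fewer cells with a transcript and less of it per cell cannot be told apart.

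The directions differed between the gene clusters. Without any filter, every KYSE510 control exceeded every KYSE150 control in 22 of the 41 genes of cluster 8 (51571298 to 53580269), and the reverse held in 2. In the 56 genes of the adjoining cluster 9 (55476332 to 58481230), every KYSE150 control was the higher in 37 and every KYSE510 control in 4. Among tested genes, 17 of 21 in cluster 8 were called higher in KYSE510 and 2 higher in KYSE150, with a median log2 difference of 0.89. Of these 21, however, 13 had passed the filter only through KYSE510 and so had to be higher there. Of the 8 that passed in each line, 4 were called higher in KYSE510 and 2 in KYSE150, with a median of 0.25. In cluster 9, 34 of 44 tested genes were called higher in KYSE150 and 4 in KYSE510 (median -0.75), and of the 29 that passed in each line 20 and 3 (median -0.70). Tested genes of clusters 1 to 7 include some that passed through 1 line only. Those called higher in KYSE150 were 3 of 3 in cluster 1 (median -0.52), 9 of 12 in cluster 2 (-0.59) and 11 of 15 in cluster 3 (-0.73). They were 5 of 5 in cluster 4 (-0.57) and 13 of 21 in cluster 7 (-0.29). Genes higher in KYSE510 numbered 2 of 3 tested in cluster 5 and 3 of 5 in cluster 6. Of genes that passed in each line, 7 of 8 in cluster 2 were called higher in KYSE150 (median -0.59). In cluster 3 it was 4 of 8, with 1 higher in KYSE510 (-0.29), and in cluster 4 it was 2 of 2. In cluster 7 it was 11 of 18, with 2 higher in KYSE510 (-0.29). Over all genes passing in each line, the shares were 34.5% for KYSE150 and 25.1% for KYSE510.

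The other genes lying inside a cluster leaned the same way in several places. Within cluster 8 the 18 tested genes outside the set had a median log2 difference of 0.64, and 10 were called higher in KYSE510 and 0 in KYSE150. Within cluster 9 the 37 tested neighbours had a median of -0.61, with 24 called higher in KYSE150 and 5 in KYSE510. Within cluster 3 the 11 tested neighbours had a median of -1.07, with 8 called higher in KYSE150. Cluster 4 was different, in that its 8 tested neighbours had a median of -0.01. Of all tested genes, 28.3% were called higher in KYSE510 and 33.7% in KYSE150. The neighbours include rows that passed the filter through 1 line only and so had to be higher there. Some also share exon bases with genes of the set. ZNF816-ZNF321P in cluster 8 is of both kinds, with no KYSE150 read and 940 exon bases shared with ZNF321P.

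**Figure D2:**
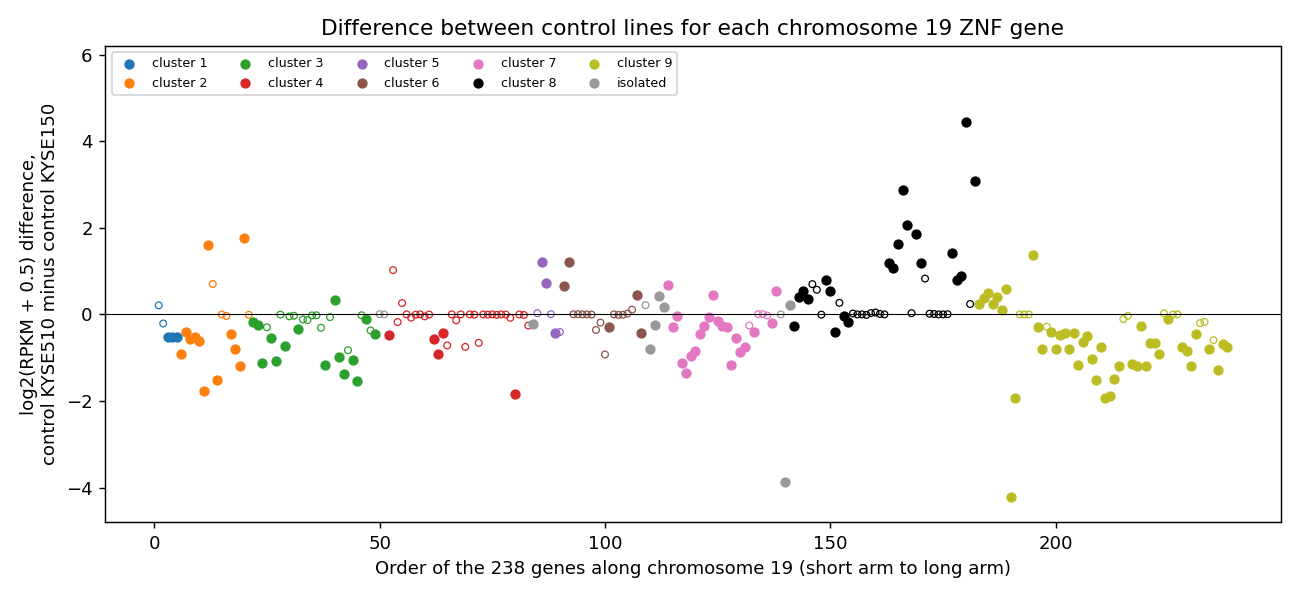
Difference between control KYSE510 and control KYSE150 in log2(RPKM + 0.5) for each of the 238 genes in their order along chromosome 19, coloured by cluster. Filled points are the 136 tested genes and open points the 102 below the filter. Most filled points of cluster 8 lie above 0, with ZNF761 at 4.43, and most filled points of cluster 9 below it, with ZNF787 at -4.21.

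The summed levels of the clusters differed accordingly. Cluster 8 gave 17.9 ± 0.639 RPKM (SD, n = 3) in control KYSE150 and 50.2 ± 5.79 in control KYSE510. Cluster 9 gave 103 ± 8.22 RPKM in KYSE150 and 55.0 ± 4.18 in KYSE510. Cluster 6 gave 33.4 ± 2.05 and 72.6 ± 1.15 RPKM, most of it from ZNF146. The most abundant genes of the other clusters were ZNF57, ZNF317, ZNF791, ZNF714, ZNF302 and ZNF45, and ZNF302 of cluster 5 went the other way from the rest, at 1.78 ± 0.176 RPKM in KYSE150 and 4.77 ± 0.847 in KYSE510 (log2 difference 1.20, limma adjusted p = 2.16e-05). ZNF45 of cluster 7 was at 6.80 ± 0.280 RPKM in KYSE150 and 3.24 ± 0.281 in KYSE510 (-0.97, limma adjusted p = 1.07e-06).

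**Figure D3:**
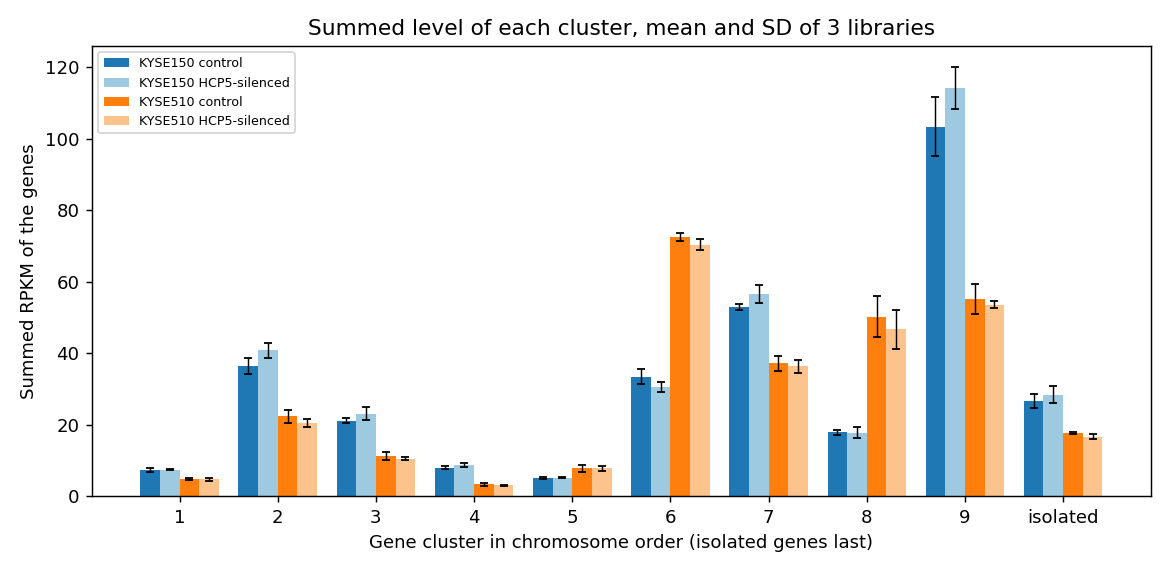
Summed RPKM of the genes of each cluster in the 4 groups, as bars for the mean of 3 libraries with the SD as error bars. Control and silenced bars of a line are closer to each other than to those of the other line in every cluster, with clusters 6 and 8 higher in KYSE510 and cluster 9 higher in KYSE150.

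The summed difference of cluster 8 came mostly from 3 places. ZNF761 gave 0.170 RPKM in KYSE150 controls and 14.01 in KYSE510 controls, ZNF331 gave 0.0061 and 3.82, and a stretch of 23 genes of the set gave 0.0196 ± 0.0149 and 10.4 ± 1.54. The other 16 genes of the cluster gave 17.7 ± 0.603 and 22.03 ± 2.77 RPKM. From ZNF610 to ZNF525 (52336245 to 53392217, 1.056 Mb), 23 consecutive genes of the set averaged under 0.01 RPKM over the 6 KYSE150 libraries. They had 27 reads together in those libraries and 7286 in the 6 KYSE510 libraries. In KYSE510, 8 of the 23 averaged at least 0.5 RPKM: ZNF83, ZNF611, ZNF600, ZNF28, ZNF468, ZNF888, ZNF321P and ZNF525. ZNF816 showed the same pattern at a lower level, with no read in KYSE150 and 181 reads, on average 0.370 RPKM, in KYSE510. The other 14 were each at 0.012 RPKM or less on average in both lines, among them ZNF528 and ZNF808. Not every row inside the stretch was without KYSE150 reads, as NDUFV2P1, a pseudogene outside the set, had 163 there and 141 in KYSE510. Genes at both edges of the stretch had reads in KYSE150. ZNF480, just before it, was at 7.34 ± 0.612 RPKM in control KYSE150 and 6.48 ± 0.758 in control KYSE510, which did not pass the test (limma adjusted p = 0.233). ZNF845, whose span lies within that of ZNF525, was at 2.28 ± 0.0273 and 4.39 ± 0.749 RPKM.

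**Figure D4:**
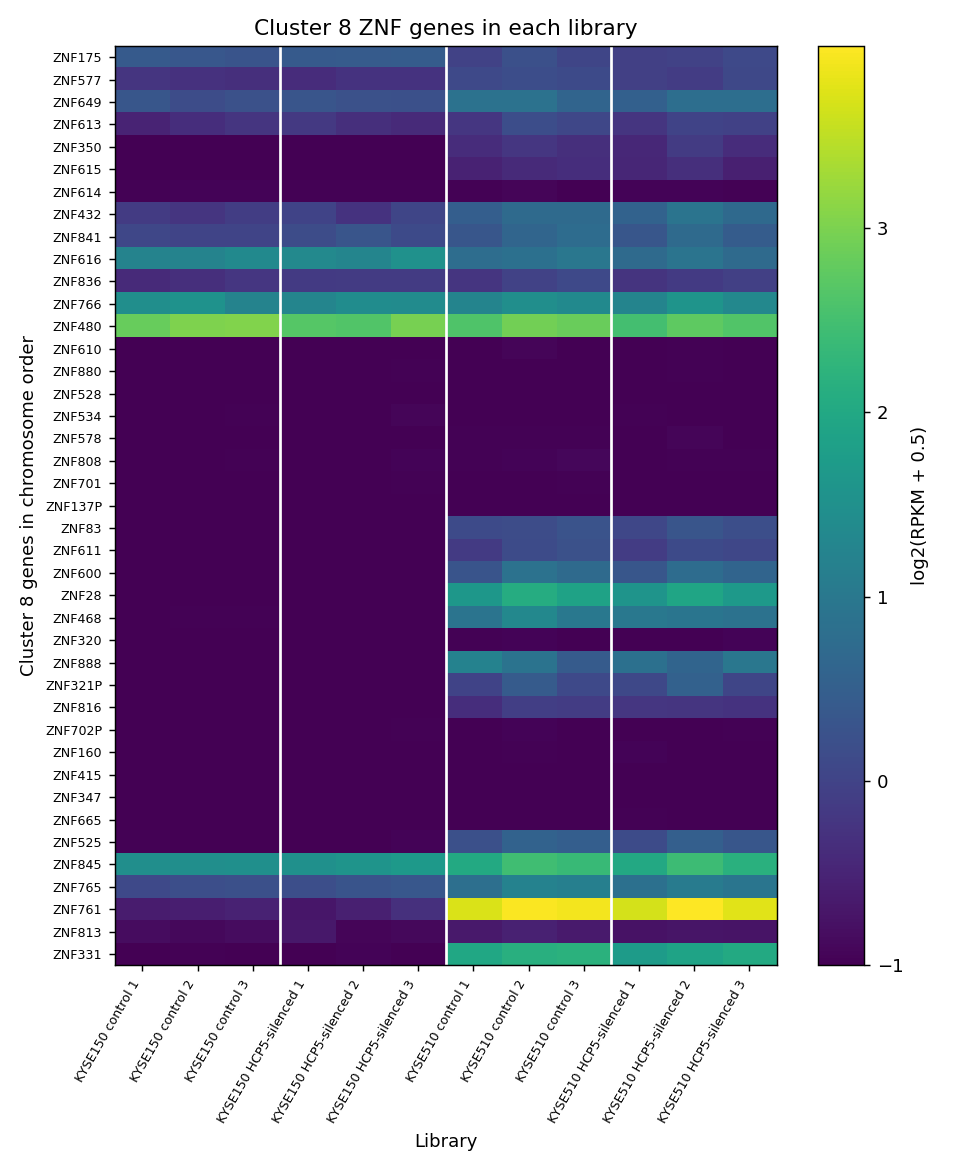
Level of the 41 cluster 8 genes, in chromosome order from top to bottom, in each of the 12 libraries as log2(RPKM + 0.5), where -1 is 0 RPKM. From ZNF610 to ZNF525 the 6 KYSE150 columns are at the bottom of the scale, while ZNF28, ZNF468 and their neighbours are raised in all 6 KYSE510 columns.

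ZNF761, a KRAB gene with 17 fingers at the far end of cluster 8, had the largest called log2 difference. Its controls were at 0.148, 0.165 and 0.196 RPKM in KYSE150 and at 12.5, 15.1 and 14.4 in KYSE510, a log2 difference of 4.43 ± 0.12 (SE; limma adjusted p = 1.25e-10). The silenced libraries stood at 0.113, 0.173 and 0.307 RPKM in KYSE150 and 12.1, 15.4 and 13.1 in KYSE510, so the groups of the 2 lines lay far apart with and without silencing. Its printed promoter holds 21 CG dinucleotides. TPM3P9, a row that begins beside the start of ZNF761 and shares 36 exon bases with it, averaged 1.40 RPKM in KYSE150 and 34.2 in KYSE510.

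ZNF331, a KRAB gene at the end of cluster 8 that is known as an imprinted gene, was at 0, 0.0126 and 0.0057 RPKM in KYSE150 controls and at 3.43, 3.94 and 4.07 in KYSE510 controls. This corresponds to 3 reads against 2274, a 624-fold ratio of read rates with a 95% counting interval of 213 to 3029, and to a log2 difference of 3.09 (limma adjusted p = 5.28e-10). Intervals and limits from reads cover counting error only. ZNF28 had no read in KYSE150 controls and 2.63, 3.74 and 3.18 RPKM (1465 reads) in KYSE510, at least 402-fold higher when 3 reads over the 3 control libraries are taken as the floor. ZNF468 had 2 reads against 664 and a log2 difference of 2.07 (limma adjusted p = 4.46e-08). Its span (52838008 to 52857649) lies almost wholly within that of ZNF28 (52797409 to 52857600), with 29 exon bases shared.

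ZNF600 of the same stretch had no read in any KYSE150 library and 0.730, 1.33 and 1.15 RPKM in KYSE510 controls, at least 106-fold higher. ZNF888, counted over only 551 exon bases, had 0 against 56 reads, at least 15.4-fold higher, and 15.0% of its 50-base words occur elsewhere. ZNF321P, a pseudogene that shares 40.2% of its exon bases with the readthrough row ZNF816-ZNF321P, also had no KYSE150 read and was at least 31.6-fold higher. Outside cluster 8 the same pattern was met in cluster 2. There ZNF559, a KRAB gene with 9 fingers, had no KYSE150 read and 1.03, 0.980 and 1.02 RPKM in KYSE510 controls, at least 145-fold higher. ZNF812P, a transcribed pseudogene of cluster 2, was at 0.0526 ± 0.0284 RPKM in KYSE150 and 1.39 ± 0.217 in KYSE510 (log2 difference 1.77, limma adjusted p = 7.54e-07).

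In the opposite direction ZNF787 differed most. This cluster 9 gene encodes 7 fingers and no KRAB domain. KYSE150 controls had 9.25, 5.90 and 12.4 RPKM and KYSE510 controls 0, 0 and 0.0099 RPKM, which is 2157 reads against 1. The log2 difference was -4.21 ± 0.19 (SE; limma adjusted p = 8.6e-09). Its KYSE150 controls spread widely, but every one stood far above KYSE510. ZNF444, the next gene, also lacked a KRAB match and had 1.37, 1.10 and 1.84 RPKM in KYSE150 controls and no read in any KYSE510 library, at least 269-fold lower there.

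ZNF787 and ZNF444 opened a stretch with almost no reads in KYSE510. From ZNF787 to ZNF582 (56087366 to 56393545) the table has 15 rows, 4 of them in the set. KYSE510 had 6 reads in them over 6 libraries, with 13 rows at 0, and KYSE150 had 8458. Most of the KYSE150 reads were those of ZNF787 (5354), ZNF444 (1739) and ZSCAN5A (1186). Every other row had at most 74 there, and ZNF542P and ZNF582 of the set had 1 and 2, near 0 in both lines. ZSCAN5A, a zinc finger gene outside the set by its name, lay in this stretch with 1186 KYSE150 reads and 0 KYSE510 reads. Next to the stretch, ZNF71 showed the reverse, with no read in KYSE150 controls and 0.808 ± 0.147 RPKM in KYSE510 controls.

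Further along cluster 9, the adjacent genes ZNF530 and ZNF134 were both without reads in KYSE510 controls. ZNF530, a KRAB gene with 13 fingers, had 1.55, 1.22 and 1.5 RPKM in KYSE150 controls and no read in KYSE510, at least 183-fold lower there. ZNF134, with 10 fingers and no KRAB match, had 1.27, 1.31 and 1.48 RPKM in KYSE150 controls and no read in KYSE510 controls, at least 179-fold lower. The log2 differences were -1.94 and -1.89 (limma adjusted p = 2.85e-08 and 2.42e-08).

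ZNF114, an isolated KRAB gene with 3 fingers, was at 8.81, 13.7 and 7.98 RPKM in KYSE150 controls and 0.256, 0.231 and 0.153 in KYSE510 controls. Its log2 difference was -3.87 (limma adjusted p = 2.51e-08), and 1972 reads stood against 50. ZNF675 of cluster 4, the gene whose printed promoter holds 6 CG dinucleotides, was at 1.86 ± 0.207 RPKM in KYSE150 and 0.157 ± 0.0585 in KYSE510. ZNF699 of cluster 2 (14 fingers) was at 2.45 ± 0.0808 and 0.368 ± 0.120 RPKM, and ZNF443 of cluster 3 (16 fingers) at 1.42 ± 0.108 and 0.164 ± 0.0424 RPKM. All 3 passed the test, with log2 differences of -1.85, -1.77 and -1.53. ZNF443 shares 32.6% of its 50-base words with other transcripts, mostly those of ZNF799, which was also higher in KYSE150 (0.736 ± 0.0368 against 0.0917 ± 0.0211 RPKM). A part of its level that belongs to ZNF799 cannot be told apart.

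Many genes of clusters 4 and 6 were too low to test, and their reads are given as counts. In cluster 4, 15 consecutive genes from ZNF708 to ZNF725P (21291160 to 23512656, 2.221 Mb) averaged under 0.01 RPKM in KYSE510, with 3 reads against 861 in KYSE150. The highest of them, ZNF708, averaged 0.339 RPKM in KYSE150. Of the 861 reads, ZNF708, ZNF493, ZNF100 and ZNF257 had 213, 93, 300 and 242. Each other gene of the stretch had at most 5 and so was near 0 in both lines. In cluster 6, the 8 consecutive genes from ZNF382 to ZNF383 had 2 reads in KYSE510 and 909 in KYSE150, where ZNF383 reached 0.445 RPKM. Of the 909, ZNF585A, ZNF585B and ZNF383 had 294, 72 and 539, and each other gene had at most 2. Over the whole set, 26 genes had reads in KYSE150 and none in the 6 KYSE510 libraries, 16 of the 36 without KYSE510 reads being in cluster 4. Conversely 18 genes had reads in KYSE510 and none in KYSE150, and of the 28 without KYSE150 reads 14 were in cluster 8. Some of the 26 and of the 18 had only 1 read over 6 libraries, such as ZNF93 and ZNF43 in KYSE150 and ZNF382 and ZNF667 in KYSE510. Such genes were at or near 0 in both lines. The shares over all genes of the table were not computed.

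Genes with a KRAB match and those without differed in level. A gene without a match may still carry a KRAB domain, as the stricter pattern had missed genes that the looser one found. The 44 coding genes without a match had a median of 1.5 RPKM in KYSE150 controls and 0.800 in KYSE510, with a median of 9 fingers. The 179 with a match had 0.451 and 0.362 RPKM, with 13 fingers. Of the 102 tested KRAB genes, 70 (68.6%) were called higher in KYSE150 and 23 (22.5%) in KYSE510, with a median log2 difference of -0.48. Of the 31 tested without a match, 13 (41.9%) and 8 (25.8%) were called, with a median of -0.17. Over all tested genes the shares were 33.7% and 28.3%. Both classes include genes that passed the filter through 1 line only and so had to be higher there. The difference between the classes was not tested.

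Members with known targets were listed from general knowledge of the family. Of 8 genes known for binding transposable elements or ZNF gene 3′ ends, 5 were tested, and all 5 were called between the control lines, where 62.0% of all tested genes and 117 of the 136 tested genes of the set were called. ZNF468, ZNF649 (log2 difference 0.55) and ZNF765 (0.89), all of cluster 8, were higher in KYSE510. ZNF675 and ZNF274 were higher in KYSE150. ZNF468 and ZNF675 had passed the filter only through the line in which they were higher, so the filter had fixed their direction. ZNF274, which brings SETDB1 to the 3′ ends of ZNF genes, was at 3.51, 3.99 and 4.0 RPKM in KYSE150 controls and 1.92, 1.87 and 1.95 in KYSE510 controls (-0.84, limma adjusted p = 1.93e-06). ZNF91 and ZNF93, known for repression of SVA and LINE-1 elements, and ZNF808 were each at 0.0335 RPKM or less in every library.

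Genes known for methylated promoters in carcinomas were low in both lines. Of 12 listed, 10 were in the set, and none of the 10 passed the filter, which 102 of all 238 genes of the set also failed. Whether the listed genes were lower than the rest of the set was not tested. The most abundant of the 10 was ZNF132, at 0.411, 0.472 and 0.362 RPKM in KYSE150 controls and 0.171, 0.0349 and 0.117 in KYSE510 controls. No read was recovered for 4 of the 10 in any KYSE150 library and for 3 in any KYSE510 library. ZNF671, ZNF154 and ZNF418 averaged 0.0535, 0.0799 and 0.0428 RPKM in KYSE150 controls. DNA methylation was not measured.

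The partners of KRAB proteins were present in both lines. All 22 listed corepressor and heterochromatin genes were tested, and 6 (27.3%) were called higher in KYSE510 and 7 (31.8%) in KYSE150. These shares were near those of all tested genes, 28.3% and 33.7%. TRIM28, the KRAB corepressor, was at 50.5, 52.0 and 60.6 RPKM in KYSE150 controls and 35.4, 38.0 and 41.9 in KYSE510 controls, a log2 difference of -0.50. SETDB1 was at 6.38 ± 0.217 RPKM in KYSE150 and 8.62 ± 0.168 in KYSE510 (0.41). CHD3, a subunit of the NuRD complex that binds TRIM28, was at 24.9 ± 5.28 and 49.2 ± 4.80 RPKM (0.98). MPHOSPH8, a subunit of the HUSH silencing complex, was at 22.3 ± 4.57 and 9.90 ± 0.799 RPKM (-1.12).

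The second comparison set HCP5-silenced libraries against controls within each line. None of the 136 tested genes passed the test in KYSE150, where limma called 0.499% of all genes, and none in KYSE510, where it called 0.0393%. None was called for the mean of both lines (0.539% of all genes) or for the difference between the changes of the 2 lines (0% of all genes). At an unadjusted p under 0.05 stood 12 genes in KYSE150 (18.1% of all genes), 3 in KYSE510 (6.35%), 5 for the mean (11.5%) and 6 for the difference (12.2%). These shares were below those of all genes in each of the 4 tests. The call rates of limma were so low that a count of 0 among 136 genes is close to the background. The 22 corepressor and heterochromatin genes had no call in either line.

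The changes were small. In KYSE150 the log2 change, silenced minus control, ran from -0.21 to 0.42 with a median of 0.07 (0.08 over all tested genes). In KYSE510 it ran from -0.37 to 0.18 with a median of -0.05 (-0.02 over all genes). Same-numbered libraries of a line varied together, and in KYSE150 the silenced library exceeded its control in all 3 numbered pairs for 52 genes (38.2%; 37.4% of all genes) and was below it for 7 (5.15%; 13.7%). In KYSE510 it was above in 4 (2.94%; 16.0%) and below in 34 (25%; 21.8%). When each library was centred on its median the KYSE150 median of the set became -0.06, as that of all genes moved from 0.08 to -0.05, so the sign of the median in KYSE150 depends on the scaling. All KYSE150 silenced libraries were deeper than the controls (26281327 to 28202422 against 20035025 to 22700935 reads), and the part of depth was not tested.

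**Figure D5:**
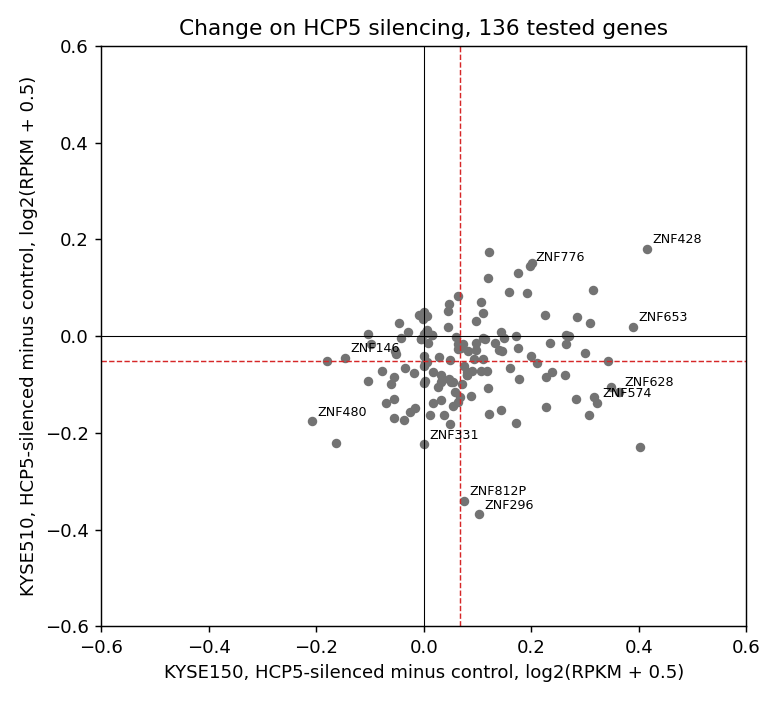
Log2(RPKM + 0.5) change on HCP5 silencing in KYSE150 (horizontal) and KYSE510 (vertical) for the 136 tested genes, with black lines at 0 and dashed red lines at the medians of 0.07 and -0.05. No gene passed the test on either axis, and ZNF428 lies highest on both.

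ZNF428, a short protein with 1 finger and no KRAB match, had the largest positive value in both lines. Its KYSE150 libraries were at 4.35, 3.57 and 5.38 RPKM in controls and 5.55, 5.6 and 6.93 in silenced cells, and the groups did not overlap. Its KYSE510 libraries were at 3.74, 3.84 and 5.28 RPKM in controls and 4.53, 4.39 and 5.80 in silenced cells, and the groups overlapped although each pair pointed up. The log2 changes were 0.42 (limma adjusted p = 0.238) and 0.18 (0.944). Under the block it was called in KYSE150 (adjusted p = 0.0326) and for the mean of both lines (log2 change 0.30, adjusted p = 0.0374). ZNF428 shares 498 exon bases, 27.6% of its length, with SRRM5 on the opposite strand.

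ZNF574, a gene without a KRAB match, was the other one called with the block, in KYSE150 only (log2 change 0.32, limma adjusted p = 0.0445 with the block and 0.243 without). It was at 4.14, 3.33 and 4.90 RPKM in KYSE150 controls and 4.78, 4.75 and 6.27 in silenced cells, which overlap. In KYSE510 its controls were at 5.59, 5.47 and 5.85 RPKM and its silenced libraries lower in each pair, at 5.21, 4.73 and 5.31. The block called 6.70% of all genes in KYSE150, 0.112% in KYSE510 and 2.74% for the mean, so 2 calls among 136 genes are below its background.

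The other changes named by rule, among genes with a mean of at least 1 RPKM in the higher group, did not pass the test with or without the block. ZNF653 had a log2 change of 0.39 in KYSE150 (limma adjusted p = 0.132), from 1.74, 1.87 and 2.12 RPKM in controls to 2.56, 3.10 and 2.34 in silenced cells, which did not overlap. ZNF628 had 0.36 there, with controls at 0.881, 0.557 and 1.42 RPKM. In ZNF428, ZNF574, ZNF628 and ZNF787 alike, the second KYSE150 control was the lowest of the 3 and the third the highest. The lowest KYSE150 values were those of ZNF480 (-0.21), ZNF627 (-0.16) and ZNF146 (-0.15), each lower in 3 of 3 pairs. In KYSE510 the lowest were ZNF296 (-0.37), ZNF812P (-0.34) and ZNF331 (-0.22), again lower in 3 of 3 pairs, and the highest after ZNF428 were ZNF784 (0.15) and ZNF776 (0.14). ZNF331 remained at 3.43, 3.94 and 4.07 RPKM in controls against 2.83, 3.20 and 3.57 in silenced KYSE510 cells. These genes were picked for the size of the change.

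The genes without reads in one line stayed at or near 0 there in silenced cells. In silenced KYSE150 libraries ZNF28 was at 0.0064, 0.0059 and 0.0062 RPKM and ZNF331 at 0.0049, 0.0138 and 0 RPKM. In silenced KYSE510 libraries ZNF787 was at 0.0114, 0 and 0 RPKM and ZNF530 and ZNF444 had no read. By class, the 31 tested genes without a KRAB match had a median log2 change of 0.20 in KYSE150 and -0.02 in KYSE510, and the 102 with a match 0.05 and -0.05. Over all tested genes the medians were 0.08 and -0.02. In the class without a match, 17 of 31 (54.8%) were higher in all 3 KYSE150 pairs, and 35 of 102 (34.3%) in the class with one. The share over all tested genes was 37.4%. No gene of either class passed the test, and the difference between the classes was not tested. By cluster, the medians in KYSE150 ran from -0.04 in cluster 6 to 0.13 in cluster 9. Across the 136 genes the changes in the 2 lines had Pearson r = 0.163 and Spearman rho = 0.143, against -0.001 and -0.042 across all tested genes, a weak relation given as a description.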

How the data were processed

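RNA was measured in 12 libraries, 3 in each of 4 groups, grouped by the labels, with replicate numbers from the titles. Per the labels' protocols, total RNA was extracted with TRIzol and libraries were made by standard Illumina procedures. The submitters' processing notes name HISAT2, DESeq and GRCh38. The authors deposited RPKM per gene with exon positions and lengths. The values were whole multiples of the value of 1 read (100% whole within 0.05), which gave reads per library. Tests used limma 3.58.1 in R 4.3.3 on log2(RPKM + 0.5), with 4 group means in 1 fit (8 residual degrees of freedom), a mean-variance trend and Benjamini-Hochberg adjustment over all 17823 genes with at least 0.5 RPKM in 3 libraries. The fit was tested on simulated data.

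Same-numbered libraries of a line deviated together (correlations of 0.147 to 0.415 over 6 pairs, -0.385 to 0.184 over 12 others). The ranges overlapped, as the second KYSE150 control had 0.184 with the first silenced library and 0.147 with the second. The pairing by number is therefore inferred and not established. The block fit was an alternative. Other alternatives were pseudocounts, filters, centring, quantile normalization, voom on recovered reads, 1 line alone and leaving out each library. An exact permutation test of 3 against 3 libraries cannot go below p = 0.1 and was not used for calls.

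The genes, lists and tests were chosen with earlier results of these data known. Genes were named by rule: the 8 largest called differences between control lines in each direction at 1 RPKM or more without overlap, genes at 0 in one line and 0.5 RPKM or more in the other, the 5 highest levels per line, the highest of each cluster, the 3 largest changes on silencing each way at 1 RPKM or more, and the lists. Genes named only in stretches, ZNF799, TPM3P9 and genes called only by voom were named after their values were seen. Fingers, KRAB matches and shared words were computed from GENCODE 29 transcripts, and promoters were taken from RefSeq (GRCh38.p14).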

Additional observations from a re-analysis of the deposited data

How the results depend on the processing

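With the replicate block, 2 genes of the set were called in KYSE150 and 1 for the mean of both lines. HCP5, outside the set, was also called for the mean with the block (adjusted p = 0.0295 with limma, 0.185 without the block). With voom on recovered reads and the block, 9 were called in KYSE150, all higher (ZNF121, ZNF562, ZNF653, ZNF574, ZNF575, ZNF428, ZNF264, ZNF548 and ZNF329), where 18.98% of all genes were called, 2 for the mean (7.255%) and 3 for the difference between lines (7.597%). The limma block changed no other silencing call named in the report. Leaving out each library gave 0 to 0 calls for each silencing test and 103 to 117 between control lines. Counting only genes that pass in each line, an alternative chosen after seeing the data, gave 68 calls between control lines, since 87 genes were then counted. The median change in KYSE150 was -0.062 with centring and -0.018 with quantile normalization, and 0.05 to 0.10 without 1 library. In KYSE510 it was -0.09 to -0.02 without 1 library. The median between control lines was -0.58 and -0.33 with pseudocounts of 0.1 and 1, -0.070 with no filter, -0.63 with voom, and -0.48 to -0.39 without 1 library. The difference of ZNF428 between control lines, which was not called, reversed to 0.094 without the third KYSE150 control and to 0.040 and 0.022 without the first and second KYSE510 controls, within a range of -0.18 to 0.094. Of the values of single named genes, 987 kept direction and call, 6 gained and 11 lost a call between the settings. The lost calls were differences between control lines of ZNF296, ZNF784 and ZNF574. Clusters cut at 0.5 Mb numbered 10, and at 2 Mb 6. Depth limits the genes left out by the filter, for which only read counts were given.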
